A study of Mus musculus with 12 samples.

Results

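Angiogenesis genes were compared in mouse fracture callus between post fracture day 10 and post fracture day 7. The comparison used 4 of the 12 arrays of the series, chosen by their titles: the angiogenesis arrays of WT and HET mice at each of those days. HET is the label of mice that the series title describes as partially deficient in HIF-1alpha, the oxygen-regulated subunit of the transcription factor HIF-1. The allele, strain, sex and age of the animals are not stated in the labels. All animals, WT and HET, had a fixed closed fracture of one femur, with no other treatment given in the labels. Each array was hybridised with biotin-labelled RNA amplified from 3 ug of a pool of callus RNA from 3 animals, so each of the 4 groups is 1 pool and 1 array. No group has a repeat array, and the arrays therefore hold no measure of the spread between animals. Array and day cannot be told apart, since each combination of genotype and day was measured once.

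A closed fracture heals through a soft callus of cartilage and fibrous tissue that is invaded by blood vessels and replaced by bone. Vessels grow under the control of VEGF family ligands acting on the receptors Flt1 and Kdr, of angiopoietins acting on the receptor Tek, and of ephrin signals that separate arteries from veins. Proteases open the matrix for the sprouting cells, while thrombospondins and TIMPs restrain them, and HIF-1 induces several of these genes when oxygen is low.

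The array measured 100 genes on 106 spots, with 6 further spots of plasmid PUC18 or no DNA as negative controls. Spot brightness is given as a density, a linear intensity with no unit. A gene was counted as above background where its density exceeded the brightest control spot of its own array. By that rule 9 genes were above background in WT and 12 in HET on day 7, against 76 in WT and 91 in HET on day 10. The median gene spot density was 34.1 in WT and 163.5 in HET on day 7, and 1738 in WT and 589 in HET on day 10. The brightest control spot stood at 241.0, 311.6, 490.4 and 162.1 on the arrays of WT day 7, HET day 7, WT day 10 and HET day 10. The median control spot stood at 94.4, 288.0, 120.0 and 110.4 on the same arrays, above the median gene spot on both day 7 arrays and below it on both day 10 arrays. Both day 10 arrays were thus brighter than both day 7 arrays in the gene spots, but not in the control spots. The number of arrays limits the precision of every value here. As the RNA came from whole callus, more cells of a type and more RNA per cell cannot be told apart.

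**Figure D1:**
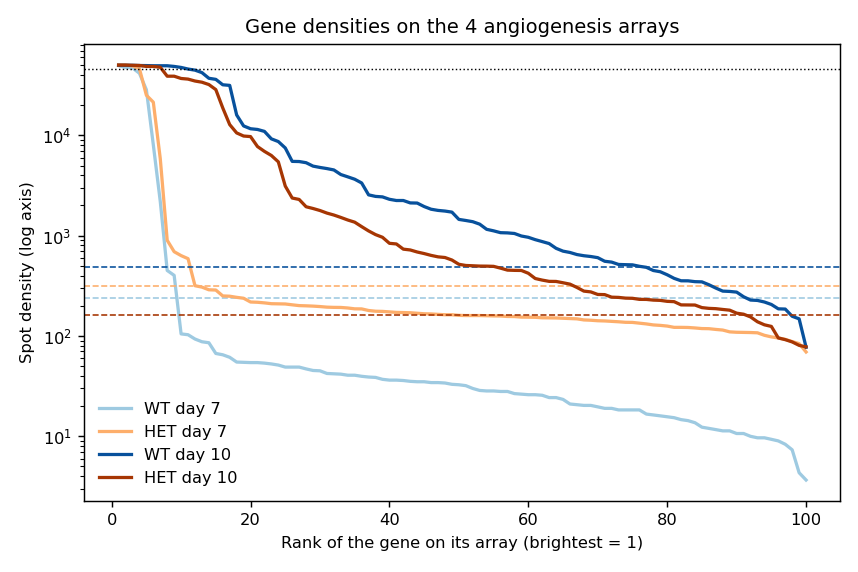
Density of the 100 genes on each of the 4 arrays, ordered from the brightest to the dimmest gene on a log axis. The dashed line of each colour is the brightest control spot of that array and the dotted line the ceiling. In the day 7 arrays 9 and 12 genes lie above their dashed line, against 76 and 91 in the day 10 arrays.

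Densities reached at most 50779 on any array of the series, and a gene within 90% of that value, at 45701 or more, was marked as near the ceiling. Near the ceiling stood 3 genes in WT and 4 in HET on day 7, and 11 in WT and 7 in HET on day 10. A difference that involves such a gene is a lower limit of its size. Where a gene was above background at day 10 only, its difference is a lower limit, taken from the level of the dimmest day 7 gene that passed background, and is written as "at least". That dimmest gene was Sparc at 402 in WT and Csf3 at 317 in HET. The densities printed below are uncorrected, while differences and limits use background-corrected densities. A limit can therefore exceed the ratio of the printed values.

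Before the comparison, Hif1a, the gene for which the mice are named, was read on every array. Its density was 8037 in WT and 25140.1 in HET on day 7, and 11449 in WT and 6924 in HET on day 10. The array labelled HET was the brighter at day 7 and the dimmer at day 10. The labels give neither the allele nor the position of the probe on Hif1a, so these densities do not check the genotype labels. The callus label was set against the bone and cartilage matrix genes on the array, which are Sparc and Spp1. Sparc, the matrix protein osteonectin, was above background on all 4 arrays, and Spp1, osteopontin, on both day 10 arrays only.

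In all, 12 genes were above background on at least 1 day 7 array. The 9 found there in both genotypes were Actb, Gapdh, Ppia and Rpl13a, which serve as reference genes, and Ctgf, Fgfr1, Chga, Hif1a and Sparc. Fn1, Ptn and Csf3 were above background at day 7 in HET only. All 12 were still above background at day 10 in both genotypes.

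Ctgf encodes a matricellular growth factor made in abundance by cartilage cells. It was near the ceiling on every array, at 47575 and 50583 at day 7 and 49422 and 49941 at day 10 in WT and HET. Any difference between days in Ctgf, and in Actb for the same reason, is hidden by the ceiling. Fgfr1, a receptor for fibroblast growth factors, had 28491 in WT and 21415 in HET on day 7 and reached the ceiling at day 10 with 49954 and 50127. Its density difference was at least 0.81 log2 units in WT and at least 1.23 in HET.

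Chga encodes chromogranin A, a protein of secretory granules in neuroendocrine cells. Its density was 2194 in WT and 589.6 in HET on day 7, and 42232 in WT and 28587 in HET on day 10. Chga was brighter at day 10 by 4.25 log2 units in WT and 5.71 in HET, on arrays where 97 and 86 of all 100 genes had the higher density at day 10. Sparc had 402 in WT and 5865 in HET on day 7, and 47551 and 38891 at day 10. The difference was at least 6.81 log2 units in WT and 2.74 in HET, the day 7 density of HET being the higher of the pair. After quantile normalization, which gives every array the same distribution, the difference of Chga was -1.86 in WT and -0.74 in HET and that of Sparc -0.36 and -1.02.

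Fn1 encodes fibronectin, an adhesive matrix protein, and Ptn encodes pleiotrophin, a heparin-binding growth factor. Fn1 had 48.9 in WT, below background, and 692 in HET on day 7, and 44692 and 32102 at day 10. Ptn had 44.9 in WT, below background, and 633 in HET on day 7, and 31932 and 36381 at day 10. Both were far brighter at day 10 in each genotype, Fn1 by at least 6.72 log2 units in WT and 5.63 in HET, and Ptn by at least 6.23 and 5.95. After quantile normalization the differences in HET were -0.96 for Fn1 and -0.078 for Ptn. Csf3, the granulocyte colony-stimulating factor gene, had 93.2 in WT, below background, and 317 in HET on day 7, and 495 and 606 at day 10. The brightest control spot was 311.6 in HET on day 7, and 490.4 in WT and 162.1 in HET on day 10. Csf3 was thus just above background in HET at day 7 and WT at day 10, and clearly above it in HET at day 10.

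**Figure D2:**
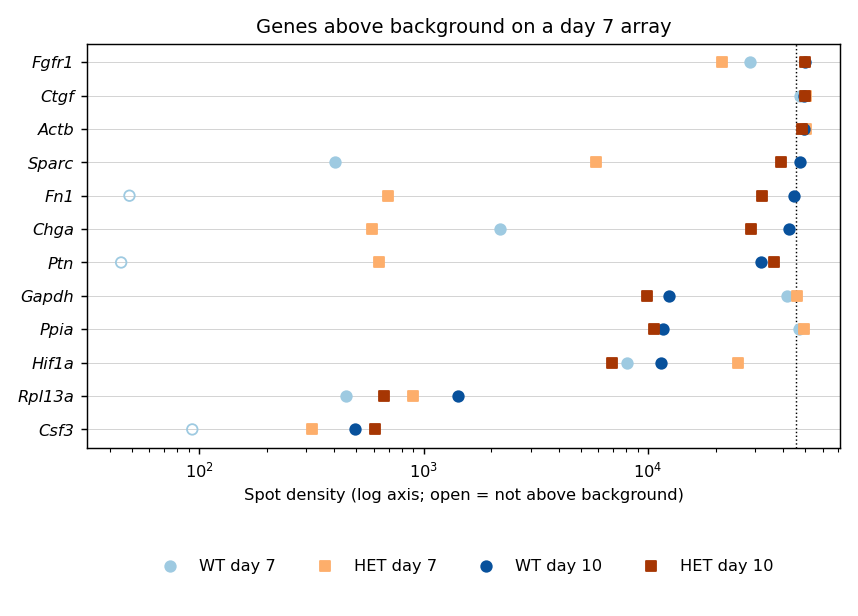
Density, on a log axis, of the 12 genes above background on at least 1 day 7 array, with 1 point per array. Open symbols mark values below the array's brightest control spot, and the dotted line marks the ceiling. Gapdh and Ppia lie lower at day 10 in both genotypes, while Chga, Sparc, Fn1 and Ptn lie higher.

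Of the 4 reference genes, Gapdh and Ppia were dimmer at day 10 while most other genes were brighter. Gapdh, a glycolytic enzyme, had 41599.9 in WT and 46228 in HET on day 7, against 12418 and 9847 at day 10. Ppia, cyclophilin A, had 47033 and 49236 at day 7, near the ceiling in both genotypes, against 11639.9 and 10575 at day 10. They were the only genes of the 100 lower by 1 log2 unit or more in both genotypes. The density difference of Gapdh was -1.75 log2 units in WT and -2.24 or lower in HET, and that of Ppia -2.09 or lower in WT and -2.23 or lower in HET. Rpl13a, a ribosomal protein gene, had 449.9 in WT and 899 in HET on day 7 and 1417 and 663 at day 10. It was higher at day 10 by 1.60 log2 units in WT and differed by -0.50 in HET. Scaling to these 4 genes gave Ppia a fitted difference of -1.25 over both genotypes (limma adjusted p = 0.31) in the model described below. With quantile normalization it was -4.50 (limma adjusted p = 0.0049). Ppia is itself 1 of the 4 genes that set the reference gene scaling. Its smaller difference on that scale is thus partly built in and tests nothing.

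Within a genotype a difference was described on the log2 density scale without normalization between arrays, and a gene was counted as higher or lower from 1 log2 unit, a 2-fold difference. No test is possible there with 1 array per group. In WT, 74 genes had a difference or a limit of one, and 56 of them (75.7%) were higher and 2 (2.7%) lower at day 10. Newly above background at day 10 in WT were 67 of 100 genes (67.0%), and no gene went the other way. In HET, 64 genes had a difference or a limit, and 42 of them (65.6%) were higher and 3 (4.69%) lower. Another 25 HET genes passed background at day 10 with a density under the dimmest day 7 gene that did so, and were given no limit. Most genes of both genotypes were counted only because they passed background at day 10, so these shares describe the arrays and are no measure of how many genes rose. Newly above background in HET were 79 of 100 genes (79.0%), and again none went the other way.

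Higher in both genotypes were 38 genes, and 62 were above background at day 10 in both genotypes and at day 7 in neither. The plain density was higher at day 10 for 97 genes in WT and for 86 in HET. The median density difference over all 100 genes was 4.20 log2 units in WT and 1.76 in HET, a general shift that rests mostly on day 7 values below background and is no size of a change in RNA. With genes at their lower limits, the median was 2.31 log2 units over the 74 genes of WT and 1.78 over the 64 of HET. Across the 100 genes the differences of WT and HET had a Pearson correlation of 0.88 and a Spearman correlation of 0.85, a description that includes this shift and values below background, with genes that are not independent replicates. The 7 genes below background on all 4 arrays were Egf, Figf, Id1, Idb3, Nrp1, Pgf and Serpinb2.

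**Figure D3:**
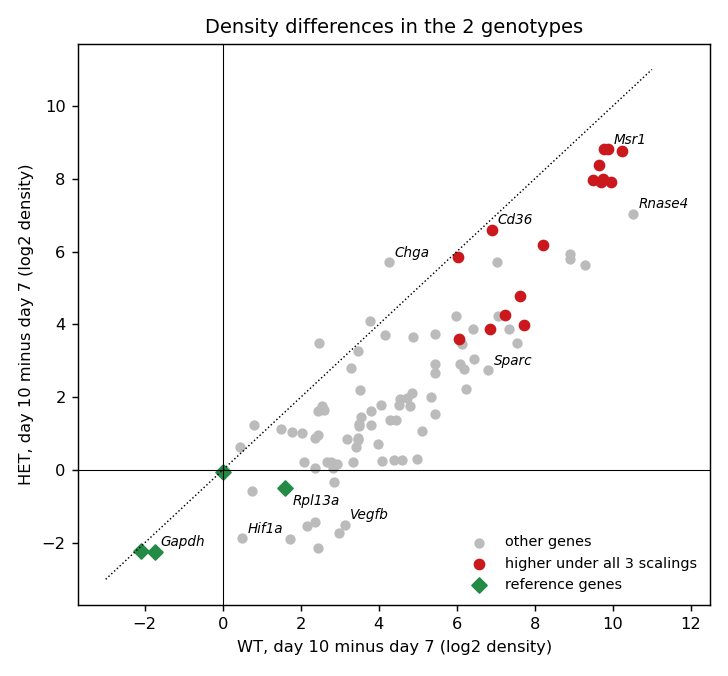
Day 10 minus day 7 difference in log2 density of each of the 100 genes in WT (x axis) against HET (y axis), with values below background included. The solid lines mark 0, and on the dotted line both genotypes differ equally. Most genes lie below the dotted line. Hif1a and Rpl13a lie to the right of 0 in WT and below 0 in HET, and Gapdh below 0 in both.

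The genotypes were then combined in 1 limma model with genotype and day as additive terms, fitted to the quantile-normalized values of all 6 angiogenesis arrays, the pair of day 14 arrays included. WT and HET stand in for replicates in this model, so its error is the variation of the day difference between genotypes together with array error, on 2 residual degrees of freedom. Of 96 genes above background on at least 1 of these arrays, 17 (17.7%) were higher and 14 (14.6%) lower at day 10 at an adjusted p under 0.05. Quantile normalization forces the arrays to 1 distribution although their detected genes differ from 9 to 91, so the calls were set beside those of the same model without normalization and with scaling to the reference genes. Without normalization 28 genes were higher and 0 lower in limma, with 43 higher and 0 lower at an unadjusted p under 0.05. With reference gene scaling 68 were higher and 0 lower, with 71 higher at an unadjusted p under 0.05.

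Higher under all 3 scalings were 16 genes (16.7%), and no gene was lower under all 3. The 16 were Fgf7, Flt1, Thbs1, Hgf, Thbs2, Tgfb3, Msr1, Efnb2, Tgfbr1, Tek, Cd36, Mmp9, Ptgs2, Cdh5, Pdgfra and Fgf4. All 17 genes called higher on the quantile scale were below background on both day 7 arrays, so they entered the model only through later arrays on which they were bright. Their fitted differences and p-values set bright spots against day 7 values that are not measured levels, and the lower limits from densities are given beside them as the size. This limit applies to each p-value printed below for these genes, and for any other gene below background on both day 7 arrays, under every scaling. Such a p-value is no separate support for a rise or a fall. Reference gene scaling shifts all unnormalized values of an array by the same amount, so its calls are not separate from those without normalization. Where a gene is said below to have risen in the model, it was called higher on the quantile scale. The calls needed both day 10 arrays: without that of WT, or without that of HET, limma called 0 genes in either direction, with 23 and 24 genes at an unadjusted p under 0.05. With days 7 and 10 alone, 8 genes were higher and 8 lower.

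**Figure D4:**
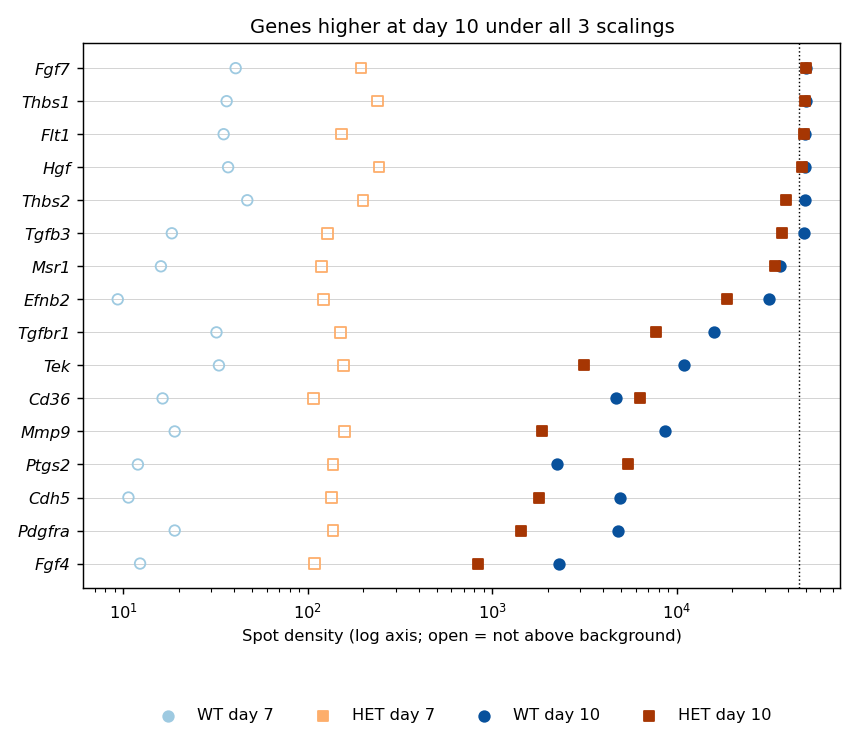
Density, on a log axis, of the 16 genes that were higher at day 10 under all 3 scalings, with 1 point per array. Open symbols are values below background and the dotted line marks the ceiling. All day 7 points are open and all day 10 points lie above them.

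Of these genes, 6 reached the brightest level of the array. Fgf7, a growth factor made by stromal cells that acts on epithelium, had 40.6 in WT and 194 in HET on day 7, and 49948 and 50122 at day 10. Flt1, the VEGF receptor also known as VEGFR1, went from 35.0 and 152 to 49686 and 48633. Thbs1, the angiogenesis inhibitor thrombospondin 1, went from 36.3 and 237.7 to 49964 and 49758. All 3 were below the brightest control spot at day 7 and near the ceiling in both genotypes at day 10.

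Hgf, hepatocyte growth factor, went from 37.0 in WT and 243 in HET to 49418 and 47795. Thbs2, the related inhibitor thrombospondin 2, went from 46.9 and 198 to 49614 and 38898. Tgfb3, a ligand of the TGF-beta family, went from 18.3 and 128 to 48664 and 36904. Thbs2 and Tgfb3 were near the ceiling in WT only at day 10.

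Over both genotypes, the background-corrected density of Flt1 was at least 144-fold higher at day 10 and that of Fgf7 at least 147-fold. Without background correction the limits were smaller in HET. They were 6.86 log2 units in WT and 7.15 in HET for Flt1, and 6.87 and 7.19 for Fgf7. On the quantile scale the fitted difference was 7.14 ± 0.66 (SE) log2 units for Flt1 and 6.12 ± 0.56 for Fgf7, each with an adjusted p of 0.0028 in limma. Tgfb3 had a fitted difference of 6.09 ± 0.56 (limma adjusted p = 0.0028), Thbs1 of 5.63 ± 0.82 (limma adjusted p = 0.0063) and Hgf of 3.77 ± 0.66 (limma adjusted p = 0.012).

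The promoters of the first 3 of the 16 genes by fitted difference that have an entry in the RefSeq promoter table (GRCm38.p6) are shown because these genes went together from background to a bright signal in both genotypes. Each runs 5′ to 3′ on the gene's strand, over 300 bases around the gene's start, and capitals mark the core of the HIF binding motif, ACGTG or GCGTG on either strand (read as CACGT or CACGC on the printed strand where it lies on the other).
Flt1: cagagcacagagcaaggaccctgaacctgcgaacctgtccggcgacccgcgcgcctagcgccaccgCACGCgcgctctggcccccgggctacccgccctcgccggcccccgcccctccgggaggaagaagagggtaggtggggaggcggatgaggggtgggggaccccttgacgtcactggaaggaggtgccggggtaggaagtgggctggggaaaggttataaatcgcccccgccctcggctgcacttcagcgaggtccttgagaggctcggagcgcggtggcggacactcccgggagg
Fgf7: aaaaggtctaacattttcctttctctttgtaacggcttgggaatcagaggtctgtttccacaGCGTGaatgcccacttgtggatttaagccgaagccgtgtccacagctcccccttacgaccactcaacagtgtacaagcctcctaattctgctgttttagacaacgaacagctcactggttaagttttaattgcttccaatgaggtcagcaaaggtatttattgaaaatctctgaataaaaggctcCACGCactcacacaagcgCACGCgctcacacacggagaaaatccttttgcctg
Efnb2: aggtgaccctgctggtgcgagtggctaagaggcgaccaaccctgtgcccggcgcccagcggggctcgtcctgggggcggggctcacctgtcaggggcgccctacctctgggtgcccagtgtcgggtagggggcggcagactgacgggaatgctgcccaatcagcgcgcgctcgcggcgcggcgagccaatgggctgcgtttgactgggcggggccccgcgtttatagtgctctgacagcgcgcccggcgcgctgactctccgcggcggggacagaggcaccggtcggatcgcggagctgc

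Flt1 lies at chr5:147725962-147726261 on the minus strand, Fgf7 at chr2:126034408-126034707 on the plus strand and Efnb2 at chr8:8661193-8661492 on the minus strand. The motif occurs 1 time in the Flt1 window, 3 times in the Fgf7 window and 0 times in the Efnb2 window. It occurs in 11836 of 27025 RefSeq mouse promoters of the same length (43.8%), in 38 of the 69 array genes with an entry (55.1%) and in 5 of the 11 genes with an entry among the 16 (45.5%). A match describes these letters only and is no evidence of binding.

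Msr1 and Cd36 encode scavenger receptors of macrophages, and Cd36 is also a fatty acid carrier of fat and endothelial cells. Msr1 had 16.0 in WT and 119 in HET on day 7, and 36155 and 33880.1 at day 10. Cd36 had 16.3 and 108 at day 7, and 4665 and 6299 at day 10. Both were below background at day 7 and brighter at day 10. The difference was at least 6.41 log2 units of density in WT and 6.95 in HET for Msr1 (limma adjusted p = 0.0049). For Cd36 it was at least 3.45 and 4.51 (limma adjusted p = 0.017). They are the whole of the macrophage and lipid list on this array, so they show the level of these 2 genes and not a count of macrophages.

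Endothelial cells were read from 10 marker genes, none of them above background on a day 7 array. At day 10, 8 of the 10 were above background in WT and all 10 in HET, against 76 and 91 of all 100 genes. Of the 10, 7 and 6 were higher by 1 log2 unit or more, against 56 and 42 of all 100. With members at their lower limits, the median was 3.11 log2 units over 8 members in WT and 1.97 over 8 in HET, against 2.31 and 1.78 over all genes with a value. In the model 3 of the 10 rose (Flt1, Tek and Cdh5), against 17 of all 96 tested, and 1 was lower on the quantile scale (Edg1). Tek, the receptor of the angiopoietins, had 33.0 and 156 at day 7 and 10955 and 3123 at day 10 in WT and HET. Cdh5, the cadherin of endothelial junctions, had 10.7 and 134 at day 7 and 4936 and 1781 at day 10.

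Both genes were below background at day 7, where HET was the denser array for nearly all genes, WT being denser for 2 of the 100. Tek rose by at least 4.69 log2 units of density in WT and 3.49 in HET (limma adjusted p = 0.021), and Cdh5 by at least 3.54 and 2.66 (limma adjusted p = 0.014). Pecam1, the adhesion receptor CD31, had 26.0 and 132 at day 7 and 2113 and 615 at day 10, a difference of at least 2.30 log2 units in WT and 1.04 in HET. Edg1, a receptor for sphingosine 1-phosphate, had 105 and 289 at day 7, below background, and 679.8 and 504 at day 10. Its fitted difference was -4.78 on the quantile scale but 1.63 without normalization and 2.54 with reference gene scaling, so its direction depends on the scaling.

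On the quantile scale no VEGF ligand passed the test in the direction of Flt1. None of the 8 VEGF ligands and receptors was above background at day 7, and 4 were at day 10 in each genotype, against 76 and 91 of all 100 genes in WT and HET. Vegfa, the main ligand of vessel sprouting, had 66.9 in WT and 208 in HET on day 7 and 834 and 350.2 at day 10. Vegfb had 103 and 249 at day 7 and 1117 and 125 at day 10, above background in WT only. Vegfc, a ligand best known for lymphatic vessels, had 54.3 and 217 at day 7 and 148 and 169 at day 10, above background in HET only. At day 10 all 3 ligands were thus dim or at background in at least 1 genotype.

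The density limit of Vegfa was at least 0.94 log2 units in WT and 0.12 in HET, both under 2-fold. Kdr, the main signalling receptor for VEGF, had 52.6 and 69.2 at day 7 and 1051 and 497 at day 10, at least 1.28 and 0.70 log2 units higher. With members at their lower limits, the median of the list was 1.33 log2 units over 4 members in WT and 0.70 over 3 in HET, against 2.31 and 1.78 over all genes with a value. In the model 1 of the 6 tested members rose (Flt1) and Vegfa, Vegfb and Vegfc were lower on the quantile scale. For Vegfa the fitted difference was -3.63 (limma adjusted p = 0.018) on that scale and 2.02 (limma adjusted p = 0.20) without normalization, so its direction depends on the scaling.

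Among angiopoietins and their receptors, 2 of 4 were above background in WT at day 10 and 4 of 4 in HET, against 76 and 91 of all 100 genes. Angpt1, the ligand that steadies vessels through Tek, had 35.0 in WT and 287 in HET on day 7 and 7489 and 12802 at day 10, at least 4.14 and 5.54 log2 units higher. Angpt2, which loosens vessels by blocking Tek, had 15.6 and 166 at day 7 and 437 and 1230.4 at day 10. Angpt2 was above background at day 10 in HET only, where it was at least 2.11 log2 units higher. In the model on the quantile scale Tek rose and neither ligand passed the test. Angpt1 passed it without normalization (6.37, limma adjusted p = 0.021) and with reference gene scaling (7.28, limma adjusted p = 0.00062). Angpt2 passed with reference gene scaling (4.27, limma adjusted p = 0.027) but not without normalization (3.36, limma adjusted p = 0.17). The day 7 values of both ligands were below background.

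Ephrins and Eph receptors mark arterial and venous endothelium. Of the 4 on the array, 3 were above background in WT and 4 in HET on day 10, and none at day 7. Of all 100 genes, 76 and 91 were above background at day 10 and 9 and 12 at day 7. Efnb2, the arterial ephrin, had 9.32 in WT and 122 in HET on day 7 and 31497 and 18766 at day 10. From day 7 values below background, its background-corrected density was at least 71.3-fold higher over both genotypes, and the model called it higher (limma adjusted p = 0.0049). Ephb4, its venous receptor, had 64.9 and 196 at day 7, below background, and 2436 and 572 at day 10. Its fitted difference was -2.22 on the quantile scale (limma adjusted p = 0.072) but 3.28 without normalization (limma adjusted p = 0.11). With reference gene scaling it was 4.19 (limma adjusted p = 0.014), so its direction depends on the scaling.

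The list of HGF, IGF, EGF, PDGF and FGF family genes, receptors included, was the largest, with 21 members. Of these, 18 were above background in WT and 20 in HET on day 10, against 2 and 3 at day 7 and against 76 and 91 of all 100 genes at day 10. Of the 21, 12 and 9 were higher by 1 log2 unit or more, against 56 and 42 of all 100. With members at their lower limits, the median was 1.68 log2 units over 17 members in WT and 1.42 over 14 in HET, against 2.31 and 1.78 over all genes with a value. In the model 4 of 21 rose, a share near the 17 of 96 over all genes, which were Fgf7, Hgf, Pdgfra and Fgf4, and 0 were lower in limma, also at an unadjusted p under 0.05. Pdgfra, a receptor of mesenchymal cells, had 19.0 and 137 at day 7 and 4787 and 1433 at day 10 in WT and HET, at least 3.49 and 2.34 log2 units higher (limma adjusted p = 0.028). Fgf4, best known as a growth factor of the early embryo, had 12.3 and 109 at day 7 and 2305 and 839 at day 10, the dimmest HET value at day 10 of the 16 genes higher under all 3 scalings.

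The TGF-beta list held 8 ligands, receptors and SMADs, with 6 above background in WT and all 8 in HET on day 10 and none at day 7. Of all 100 genes, 76 and 91 were above background at day 10 and 9 and 12 at day 7. Tgfb3 and the type I receptor gene Tgfbr1, 2 of the 8, rose in the model from day 7 values below background, against 17 of all 96 tested. Tgfbr1 had 32.0 in WT and 150.1 in HET on day 7 and 15978 and 7736 at day 10, at least 5.23 and 4.81 log2 units higher (limma adjusted p = 0.021). Tgfb1, in contrast to Tgfb3, stayed dim, with 32.6 and 151 at day 7 and 631 and 242 at day 10.

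Of 12 endogenous inhibitors of angiogenesis, 10 were above background in WT and 11 in HET on day 10 and none at day 7, against 76 and 91 of all 100 genes at day 10. Of the 12, 9 and 8 were higher by 1 log2 unit or more, against 56 and 42 of all 100. With members at their lower limits, the median was 3.43 log2 units over 10 members in WT and 2.42 over 9 in HET, against 2.31 and 1.78 over all genes with a value. Thbs1 and Thbs2 rose in the model, and Col18a1, the source of endostatin, was lower on the quantile scale, with densities of 20.3 and 176 at day 7 and 77.2 and 258 at day 10. Timp2, an inhibitor of matrix metalloproteinases, had 54.9 in WT and 218 in HET on day 7 and 37068 and 9723 at day 10. That is at least 6.45 log2 units higher in WT and 5.14 in HET, but the fitted difference on the quantile scale did not pass the test (limma adjusted p = 0.56).

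Proteases and protease inhibitors numbered 9, of which 7 in WT and all 9 in HET were above background at day 10, against 76 and 91 of all 100 genes. Mmp9, the gelatinase that osteoclasts and vessel-forming cells use to open cartilage, had 19.0 and 158 at day 7 and 8674 and 1865 at day 10 in WT and HET. It was below background at day 7 and higher at day 10 by at least 4.35 log2 units of density in WT and 2.73 in HET (limma adjusted p = 0.029). Mmp2, the other gelatinase, had 51.3 and 214 at day 7 and 1452 and 494 at day 10. Mmp2 was lower on the quantile scale (-2.68) and higher without normalization (2.83), so its direction depends on the scaling.

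The matrix and integrin list had 8 members, with 5 above background in WT and 8 in HET on day 10, against 1 and 2 at day 7. Of all 100 genes, 76 and 91 were above background at day 10 and 9 and 12 at day 7. Itgav, the alpha v integrin subunit, had 9.65 and 102 at day 7 and 2241 and 687 at day 10 in WT and HET. It was the single gene called higher on the quantile scale (limma adjusted p = 0.030) that missed the threshold without normalization (limma adjusted p = 0.066). Spp1 had 61.3 and 251 at day 7 and 3653 and 1606 at day 10, at least 3.10 and 2.51 log2 units higher. The model placed Spp1 lower on the quantile scale (-2.28, limma adjusted p = 0.029) and higher without normalization (4.17, limma adjusted p = 0.041).

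Of 10 chemokines, cytokines and interferons, 8 were above background in WT and 9 in HET on day 10, against 76 and 91 of all 100 genes. Higher by 1 log2 unit or more were 3 and 1 of the 10, against 56 and 42 of all 100. As most are lower limits, the others may differ by more than 2-fold. Ccl2, a chemokine that draws monocytes, had 16.6 in WT and 170.4 in HET on day 7 and 1716 and 422 at day 10. Il10 and Cxcl1 were the others higher in WT, by at least 1.15 and 2.04 log2 units, and Csf3 the one in HET, by 1.02. That HET value of Csf3 was 0.88 without background correction and 0.96 with an offset of 50. It was -4.15 after quantile normalization and 2.27 with reference gene scaling. On the quantile scale 0 members rose in limma, also at an unadjusted p under 0.05, and Csf3 and Tnf were lower.

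The hypoxia and transcription list held 7 genes, of which Hif1a was above background at day 7. Ptgs2, the inducible cyclooxygenase, had 11.98 in WT and 136 in HET on day 7 and 2241 and 5445 at day 10. It was below background at day 7 and higher at day 10 by at least 2.39 log2 units of density in WT and 4.30 in HET (limma adjusted p = 0.025). Apart from Fgf7, which was near the ceiling in both genotypes, Cd36 and Ptgs2 were the genes of the 16 with the higher day 10 density in HET. Nos3, the endothelial nitric oxide synthase, had 23.3 and 141 at day 7 and 3352 and 720.1 at day 10. Hif1a was higher at day 10 by 0.50 log2 units in WT and lower, at -1.87, in HET. Its fitted difference was -4.14 ± 0.56 on the quantile scale (limma adjusted p = 0.0049) but -0.68 without normalization (limma adjusted p = 0.60).

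Rnase4, a secreted ribonuclease of the angiogenin family that was in none of these lists, was among the 10 genes with the largest density difference in each genotype. It had 8.99 in WT and 307 in HET on day 7 and 45834 and 34814 at day 10, at least 6.76 and 6.99 log2 units higher. On the quantile scale its fitted difference of 3.57 ± 1.95 did not pass the test (limma adjusted p = 0.26). Rnase4 passed without normalization (8.78, limma adjusted p = 0.018) and with reference gene scaling (9.69, limma adjusted p = 0.00017). Its day 7 densities lay far apart in WT and HET, though both were below background.

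Of the 14 genes that the model called lower on the quantile scale, 7 had a higher density at day 10 in both genotypes, and Gapdh and Ppia alone had a lower density in both. On day 7, 9 of the 14 were below background on both arrays. None of the 14 was lower in limma without normalization or with reference gene scaling. Gapdh, Ppia and Rpl13a are among the 14 and also set the reference gene scaling, so for them that result is partly built in. The median fitted difference over all tested genes was -0.25 on the quantile scale, 3.06 without normalization and 3.97 with reference gene scaling, so a gene that is brighter at day 10 by less than most can be lower on the first scale.

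**Figure D5:**
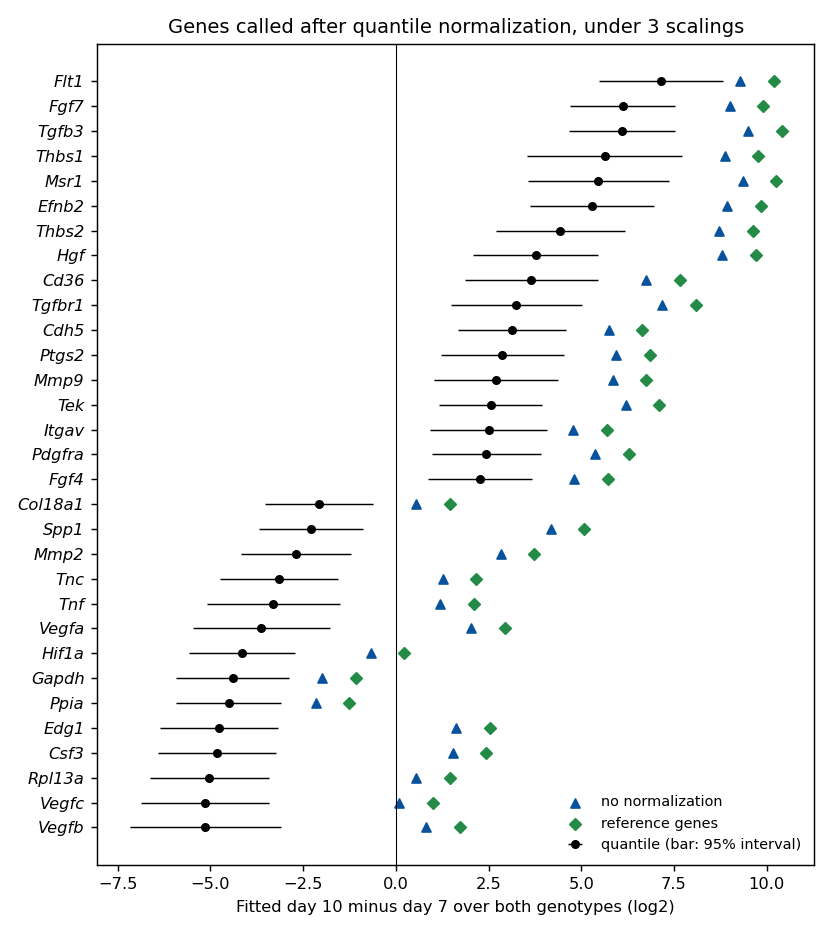
Fitted day 10 minus day 7 difference, in log2 units, of the genes called on the quantile scale, under quantile normalization, no normalization and reference gene scaling. Circles with 95% intervals stand for quantile normalization, triangles for no normalization and diamonds for reference gene scaling. The 17 genes called higher lie to the right of 0 under each scaling, and of the 14 called lower only Gapdh and Ppia lie to the left of 0 under each.

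Status at day 10 differed between genotypes for 19 genes. Above background in HET only were 17 of them, and in WT only Vegfb and Cxcl4. Of the 17, 12 had the higher density in WT, where the brightest control spot was 490.4 and the next 309.6, against 162.1 and 122.5 in HET. Eng, the endothelial TGF-beta co-receptor endoglin, is one of these, with 274 in WT and 187 in HET on day 10. With 1 threshold for the 4 arrays, set at 490.4, 55 genes were above background in HET on day 10.

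The hypoxia arrays of the same groups carry 12 of the 100 genes and give a second reading of them, though whether the same RNA pools went onto both kinds of array is not stated. Chga was brighter at day 10 there too, from 2572 to 12413 in WT and from 3699 to 20635 in HET. Rpl13a was brighter at day 10 on the hypoxia arrays in both genotypes, by 5.62 log2 units in WT and 6.15 in HET. The angiogenesis arrays gave 1.60 in WT and -0.50 in HET. Its day 7 densities on the hypoxia arrays, 12.65 in WT and 436.6 in HET, lay close to the brightest control spots of 12.65 and 391.2. Gapdh ran the other way from the angiogenesis arrays, from 25531 to 48699 in WT and from 36487 to 49613 in HET. So did Ppia, from 38723 to 48995 in WT and from 41198 to 49131 in HET.

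Hif1a on the hypoxia arrays was brighter at day 10 in both genotypes, from 137 to 30822 in WT and from 5509 to 18939 in HET. The HET difference of Hif1a was thus 1.84 log2 units on the hypoxia arrays and -1.87 on the angiogenesis arrays. Egfr was below background on the hypoxia arrays of both days and genotypes, though above it at day 10 on both angiogenesis arrays. Vegfa in HET was at least 2.85 log2 units higher on the hypoxia arrays and at least 0.12 on the angiogenesis arrays. Among genes with a difference on both array types, the direction differed for Gapdh and Ppia in both genotypes and for Hif1a and Rpl13a in HET. The cause was not tested.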

How the data were processed

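Densities were read from the scanner files of the 6 angiogenesis arrays. Per the file headers, the deposited values are a linear intensity for each of 112 spots, with no local background. No source used here names the imaging software. A second file deposited with the HET day 7 sample held the same value as the WT day 7 array at 112 of 112 spots and was not used. The authors' deposited ratio of each gene to Actb equalled the value computed from the densities at 289 of 289 filled entries and served as an alternative.

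Background was corrected with normexp in limma 3.58.1 (R 4.3.3) with an offset of 25.9 (10% of the median density of gene spots), the spots of a gene were averaged and log2 was taken. Repeated spots of the reference genes on an array had a pooled SD of 0.34 log2 units. Within a genotype arrays were compared without normalization and without a test. Over both genotypes, quantile-normalized values were fitted with lmFit and eBayes (genotype and day), with Benjamini-Hochberg adjustment over 96 genes. The fit was also run on simulated arrays that shared the same base densities, with no array-wide difference in brightness. That run does not show how the fit performs on arrays that differ in brightness as these do.

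Named genes were those above background on a day 7 array, the 10 highest and 5 lowest differences in each genotype, the 5 highest and lowest fitted, up to 3 of each list, genes whose status at day 10 differed between genotypes, and genes on both array types. Beyond this rule, genes called in the fit and members that complete a list were named after their values were seen. Members and lists were chosen with earlier results of these data known. Gene names are those of the files, of which 6 are older symbols (Ctgf is now Ccn2, Edg1 S1pr1, Figf Vegfd, Idb3 Id3, Cxcl4 Pf4 and Rsn Clip1).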

Additional observations from a re-analysis of the deposited data

Results flagged for a closer look

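The density of 11 of the 100 genes moved in opposite directions in WT and HET between day 7 and day 10. Of these, Hif1a and Rpl13a were above background and below the ceiling on all 4 arrays, and neither difference between genotypes was tested, since each group is 1 array. The day difference of Hif1a was 0.50 log2 units of density in WT and -1.87 in HET, a HET minus WT difference of -2.37. That of Rpl13a was 1.60 in WT and -0.50 in HET, a HET minus WT difference of -2.10. With reference gene scaling, which Rpl13a itself helps to set, Hif1a stood at 1.06 in WT and -0.61 in HET. Rpl13a stood at 2.16 and 0.75, so that of the pair only Rpl13a was no longer opposite. After quantile normalization both genes were lower in both genotypes, with differences for Hif1a of -3.88 in WT and -4.41 in HET and for Rpl13a of -5.20 and -4.86. The median density difference over the 100 genes was 4.20 in WT and 1.76 in HET.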

How the results depend on the processing

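Densities cannot show differences below the control spots or above the ceiling, and 1 array per group gives no replicate error. No paired analysis was possible because each group is 1 array and the labels carry no replicate numbers. With 1 threshold for the 4 arrays, 55 genes in place of 91 were above background in HET at day 10. Quantile normalization left 4 genes higher and 5 lower of 12 with a difference in WT, and 4 higher and 6 lower of 16 in HET. Reference gene scaling left 0 lower in HET. The authors' ratio to Actb, filled on both days for 23 genes in WT and 15 in HET, gave 18 higher in WT and 9 in HET. In the model over both genotypes, 28 genes were higher and 0 lower without normalization. Scaling to the reference genes gave 68 and 0, against 8 and 8 with days 7 and 10 alone. Leaving out 1 array at a time gave 0 to 16 higher and 0 to 21 lower, both zeros without either day 10 array. A ceiling of 98%, no background correction and an offset of 50 moved no count by over 1.5 times.

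Turned by quantile normalization were Chga (-1.86 in WT, -0.74 in HET), Sparc (-0.36 and -1.02), Rpl13a in WT (-5.20), and in HET Csf3 (-4.15), Fn1 (-0.96) and Ptn (-0.078). Under 2-fold in density, Hif1a in WT also turned, to -3.88, and with reference gene scaling Rpl13a in HET, to 0.75. The fitted differences of Csf3, Edg1 and Rpl13a turned to 1.53, 1.63 and 0.55 without normalization, and scaling to the reference genes gave 2.44, 2.54 and 1.46. The cause was not tested.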

Other observations

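At day 14 the 16 genes higher at day 10 under all 3 scalings were above background in 16 cases in WT and 14 in HET. Of all 100 genes, 79 in WT and 44 in HET were above background at day 14. Their density at day 14 was below that of day 10 for 14 of the 16 in WT and 13 in HET, against 62 and 84 of all 100 genes. Msr1 stood at 5529 in WT and 11617 in HET at day 14, below both day 10 values. Tgfbr1 stood at 24732 and 35992, above both day 10 values. The day 10 arrays enter both comparisons, and no test was made.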
